A study of Mus musculus with 8 samples.

Results

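Bile acid synthesis and transport was examined through 10 mouse genes, chosen by name: Cyp7a1, Cyp8b1, Cyp27a1, Cyp7b1, Slc27a5, Baat, Nr1h4, Nr0b2, Slc10a1 and Abcb11. All 10 were found among the 14506 genes of the table, and all 10 passed the filter on low values (a mean of at least 10 normalized read counts over the livers). The livers came from 8 mice, 4 of them Rragc+/+ and 4 Rragc S74N/+. Rragc encodes RagC, a GTPase that signals nutrient sufficiency to the kinase complex mTORC1, and Rragc S74N is a knock-in made by genome editing, which mimics the GDP-bound, active form of RagC on 1 allele. Of the Rragc+/+ mice, replicates 1 to 3 were 3 months old and replicate 4 was 2.5 months old. Of the Rragc S74N/+ mice, replicates 1 and 2 were 3 months old, replicate 3 was 2.5 months old and replicate 4 was 2 months old, so no Rragc+/+ mouse matched the youngest Rragc S74N/+ mouse in age. Total RNA was taken from whole liver, and QuantSeq libraries, primed at the 3′ end, were sequenced, so a read count follows the number of transcripts and not their length. Reads counted in the listed genes ranged from 4313076 to 6632108 a liver.

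Bile acids are made from cholesterol in hepatocytes, and their synthesis is the main route by which the body disposes of cholesterol. The classic pathway opens with Cyp7a1 and branches at Cyp8b1, and the alternative pathway runs through Cyp27a1 and Cyp7b1. The acids are then linked to coenzyme A by Slc27a5 and to taurine or glycine by Baat, exported into bile by Abcb11, and taken up again from portal blood by Slc10a1. The bile acid receptor FXR, encoded by Nr1h4, induces Nr0b2, whose product SHP represses the synthesis enzymes. Expression of Cyp7a1 follows the time of day, and expression of Cyp7b1 is higher in male than in female mouse liver.

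The labelled tissue was checked first. All 8 hepatocyte markers were listed, with summed levels of 331441 to 455066 normalized counts in Rragc+/+ and 360501 to 582212 in Rragc S74N/+ livers. Of the cholangiocyte markers, Krt7, Krt19 and Epcam stayed under a mean of 10 and Cftr was not listed, and the summed level of the 5 listed ones was 153 to 394 and 117 to 380. Summed levels of the Kupffer cell (1676 to 3018 and 1860 to 3148), endothelial (925 to 1277 and 913 to 1279.9) and stellate cell markers (1821 to 2324 and 1610.3 to 2113) overlapped between genotypes. In these lists the Kupffer cell gene Adgre1 (log2 fold change 0.80) and the endothelial genes Lyve1 (1.03) and Pecam1 (0.88) had an unadjusted limma p under 0.05, each with an adjusted p of 0.846. In each of these lists 4 of the 6 genes were higher and 2 lower, the lower ones being Clec4f (-0.37) and C1qa (-0.07) and Stab2 (-0.24) and Clec4g (-0.12), named after their values were seen. The part of these cells in the values below was not tested. The stellate marker Des was under a mean of 10.

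None of the 10 genes passed an adjusted p of 0.05 between genotypes, by limma, edgeR or DESeq2. Cyp7b1, the oxysterol hydroxylase of the alternative pathway, was the only one with an unadjusted limma p under 0.05, and its mean was 322 ± 228 normalized counts in Rragc S74N/+ against 730.5 ± 214 in Rragc+/+ livers (SD, n = 4 each). It was also the only one at that threshold by edgeR and by DESeq2. Fitted values were higher in Rragc S74N/+ livers for 5 genes and lower for 5, with a median log2 fold change of -0.06. Over the 11174 tested genes 5737 were higher and 5437 lower, with a median of 0.01. Adjusted p fell under 0.05 for 1 of the tested genes by limma (0.00895%), for 1 by edgeR (0.00895%) and for 10 by DESeq2 (0.0895%). An unadjusted limma p under 0.05 was reached by 578 of the tested genes (5.17%), 265 of them higher and 313 lower. A single gene is the smallest count above 0 that 10 genes can give, and it is no result about the 10 as a group. In none of the 10 genes were the genotypes fully separate, as they were in 328 of the tested genes (2.94%). In bulk liver, fewer cells that express a gene and less RNA of it per cell cannot be told apart.

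**Figure D1:**
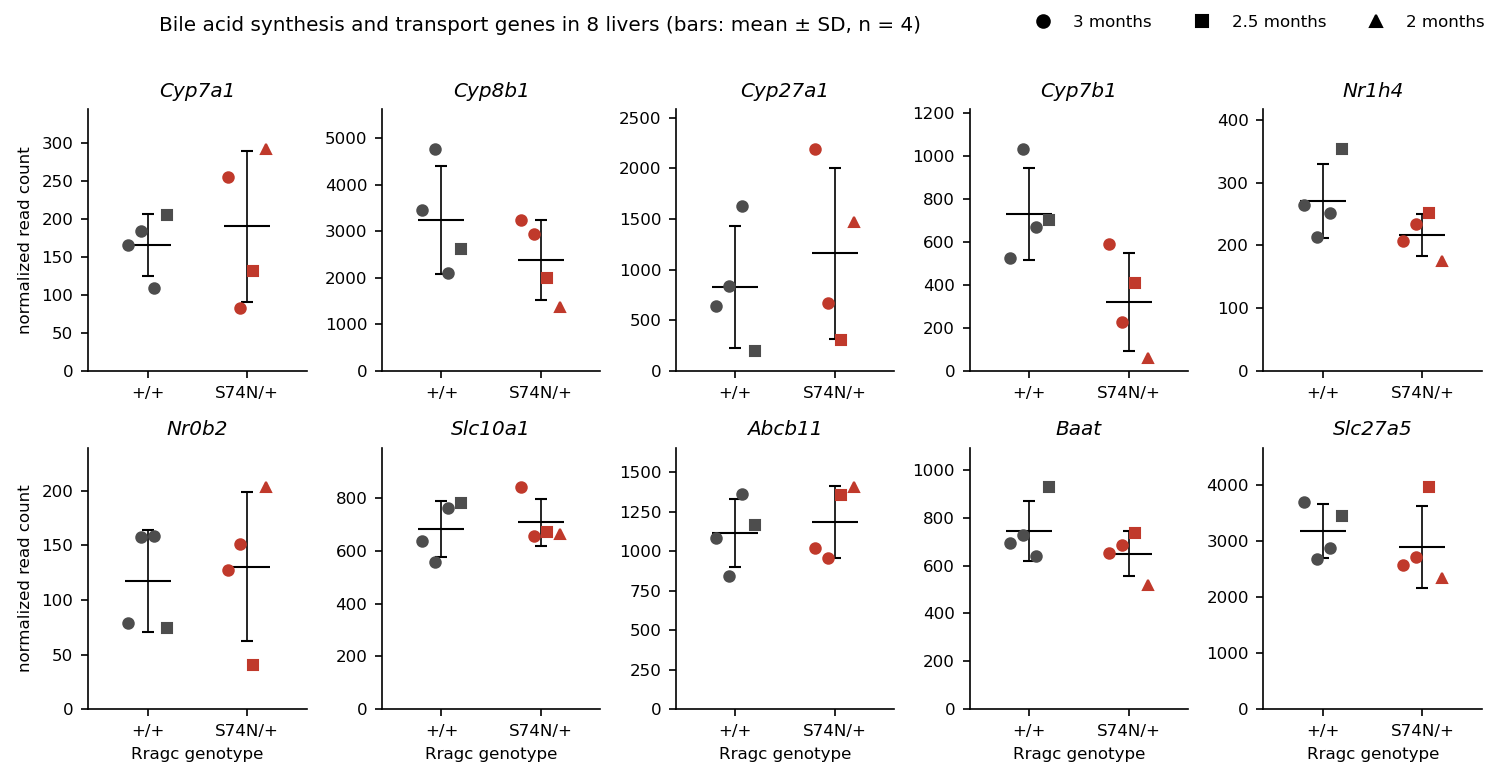
Normalized read count (vertical axis, from 0) of each of the 10 genes in the 4 Rragc+/+ and 4 Rragc S74N/+ livers, 1 point a liver with its shape giving the age of the mouse, and bars giving the mean ± SD. The genotypes overlap in every panel, and the lowest Cyp7b1 value, 62.0, is that of the 2-month-old mouse.

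**Figure D2:**
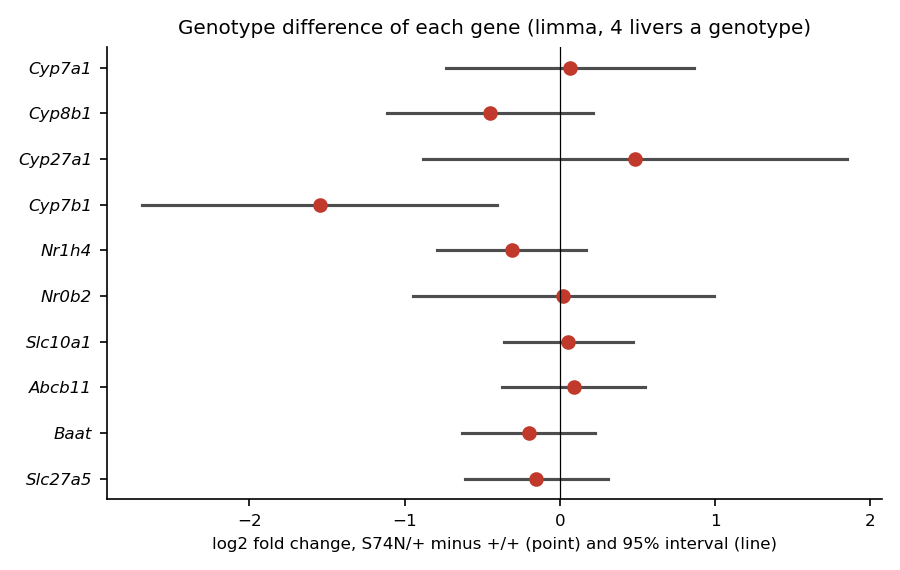
Log2 fold change of each gene, Rragc S74N/+ minus Rragc+/+, from limma (point) with its 95% interval (line), 4 livers a genotype. The interval of Cyp7b1, from -2.69 to -0.40, is the only one that does not include 0.

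Cyp7a1, the rate-limiting cholesterol 7α-hydroxylase of the classic pathway, spans bases 6265612 to 6275633 of chromosome 4 (reverse strand, GRCm38). Its normalized count, in the order of the replicates here and below, was 165, 183, 109 and 205 in Rragc+/+ livers and 255, 82.7, 131 and 291 in Rragc S74N/+ livers. The lowest and the highest liver were both Rragc S74N/+, and the Rragc+/+ values lay between them. The means were 165 ± 41.0 and 190.2 ± 99.1 (SD, n = 4 each), and the log2 fold change was 0.07 (SE 0.37, 95% interval -0.73 to 0.86, adjusted p = 0.974 by limma). Without the 2-month-old Rragc S74N/+ mouse (replicate 4) it was -0.20.

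Cyp8b1, the sterol 12α-hydroxylase that directs the classic pathway towards cholic acid, spans bases 121914356 to 121916305 of chromosome 9 (reverse strand). It was counted at 3472, 4768, 2101 and 2631 in Rragc+/+ livers and at 3244, 2952, 1999 and 1379 in Rragc S74N/+ livers. The 2 lowest livers were Rragc S74N/+ and the 2 highest Rragc+/+, but the ranges overlapped. The log2 fold change was -0.45 (SE 0.31, 95% interval -1.11 to 0.22, adjusted p = 0.846 by limma), and -0.21 without Rragc S74N/+ replicate 4.

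The ratio of the Cyp8b1 to the Cyp7a1 count, which does not depend on the scaling of a library, was 21.0, 26.0, 19.3 and 12.9 in Rragc+/+ livers. In Rragc S74N/+ livers it was 12.7, 35.7, 15.2 and 4.74, the last in the 2-month-old mouse. On the log2 scale the means were 4.25 ± 0.43 and 3.74 ± 1.19, a difference of -0.51 (exact two-sided permutation p = 0.486 over 70 labellings, the smallest possible being 0.0286). Without Rragc S74N/+ replicate 4 the difference was -0.01, and without Rragc S74N/+ replicate 2 it was -0.98 (exact two-sided permutation p = 0.0857). Across the 8 livers the log2 counts of both genes gave a Pearson r of -0.12 (exact permutation p = 0.778, adjusted 0.809 over the 4 relations computed) and a Spearman rho of -0.071 (exact permutation p = 0.882). Without the 2 livers farthest from the median of Cyp7a1, r was 0.59.

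Cyp27a1, the mitochondrial sterol 27-hydroxylase that opens the alternative pathway and also oxidises the side chain in the classic one, spans bases 74713574 to 74737892 of chromosome 1 (forward strand). Its normalized count was 646, 841, 1632 and 195 in Rragc+/+ livers and 2189, 672, 306 and 1476 in Rragc S74N/+ livers. The livers thus spanned 11.2-fold, and high and low values were found in both genotypes. The SD within genotypes was 1.27 on the log2 scale, larger than that of 96.4% of tested genes, whose median was 0.45. The log2 fold change of 0.48 (SE 0.63, 95% interval -0.88 to 1.85, adjusted p = 0.874 by limma) was smaller than this spread, and it was -0.09 without Rragc+/+ replicate 4.

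The lowest 2 values of Cyp27a1 were those of the 2.5-month-old mice, 1 of each genotype. The same 2 livers were lowest for Nr0b2 (74.7 and 40.1, the others 79.2 to 203) and for Amacr, the racemase that prepares the side chain for shortening (10.3 and 26.7, the others 37.3 to 196). They were highest for Baat (927 and 737, the others 517 to 727) and for Dbp, a clock output gene with a strong daily rhythm (57.9 and 126, the others 3.74 to 11.3). Cyp7a1, Cyp8b1, Cyp7b1, Nr1h4, Slc10a1, Abcb11 and Slc27a5 did not set both livers apart in this way. Over all tested genes Rragc+/+ replicate 4 stood at either end in 34.0% and Rragc S74N/+ replicate 3 in 28.8%. The pattern was not confined to these genes. Of the further pathway lists below, Hnf4a was also lowest in both livers (297 and 409, the others 424 to 811). So was Fgfr4 (15.9 and 37.9, the others 56.9 to 85.7). Abcb4 (3201 and 3506, the others 1324 to 2904) and Abcc2 (3045 and 3270, the others 1483 to 2594) were highest in them. Other genes of those lists, such as Nr5a2 and Hsd3b7, did not set both livers apart. How many tested genes set both livers apart was not examined. This grouping was noticed in the values, time of collection is not given in the sources used here, and the part of age or time of day in it was not tested.

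The 250 bases before the RefSeq start sites of Cyp27a1 and Nr0b2 (GRCm38.p6, forward strand for both) are shown because these 2 genes were lowest in the same livers. Capitals mark a match to TTATGNAA, the letters searched for a D-box, with any base at N. DBP binds D-boxes, and its binding to this match was not tested. The windows are chr1:74713285-74713534 and chr4:133553126-133553375.
Cyp27a1: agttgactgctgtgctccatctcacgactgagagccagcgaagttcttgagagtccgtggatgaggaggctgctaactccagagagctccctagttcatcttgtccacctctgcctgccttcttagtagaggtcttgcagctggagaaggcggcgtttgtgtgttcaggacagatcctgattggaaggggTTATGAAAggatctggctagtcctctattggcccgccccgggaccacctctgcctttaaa
Nr0b2: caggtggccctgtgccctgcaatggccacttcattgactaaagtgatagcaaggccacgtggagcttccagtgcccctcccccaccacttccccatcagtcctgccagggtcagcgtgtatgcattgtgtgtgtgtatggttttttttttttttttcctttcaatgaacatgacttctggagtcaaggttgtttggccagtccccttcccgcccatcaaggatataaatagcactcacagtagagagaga
The Cyp27a1 match starts 60 bases before the start site, and none was found in the Nr0b2 window. RefSeq windows, each reaching 250 bases before to 50 after a start, were held for 6 of the 10 genes. Searched on both strands, the D-box letters were found in 3.38% of the 32851 windows of all genes. Among the windows of the 10 genes they were found for Cyp27a1 and Slc10a1. Slc10a1 has more than 1 window, and its match lies in that with chr12:80968080-80968329 before the start. The Slc10a1 match begins 4 bases before that start, on the strand opposite to the gene. The extended half-site TCAAGGTCA of LRH-1 was found in 0.423% of all windows, and the inverted repeat of the FXR half-sites AGGTCA and TGACCT with 1 base between them in 0.00913%. Neither was found in the windows held. Only exact matches were counted, and the 13 letters of the FXR repeat are rarely matched. Their absence therefore does not show that a gene lacks an FXR site. No window was held for Cyp7a1, Cyp7b1, Baat and Slc27a5, so these genes were not searched. A match describes letters only.

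Cyp7b1, the 7α-hydroxylase of oxysterols, spans bases 18071950 to 18243338 of chromosome 3 (reverse strand). Its normalized count was 524, 1029.7, 668 and 701 in Rragc+/+ livers and 589, 227, 410.1 and 62.0 in Rragc S74N/+ livers, resting on 76 to 1101 reads. The 3 lowest livers were Rragc S74N/+, while Rragc S74N/+ replicate 1 lay above Rragc+/+ replicate 1. The livers spanned 16.6-fold, and the SD within genotypes was 1.04 on the log2 scale, larger than that of 92.8% of tested genes. The log2 fold change was -1.55 (SE 0.53, 95% interval -2.69 to -0.40, adjusted p = 0.846 by limma). Without Rragc S74N/+ replicate 4, the 2-month-old mouse, it was -0.90, and in the 3-month-old mice alone it was -0.96. The unadjusted limma p stayed under 0.05, and the adjusted p above it, in both fits and in all 8 fits that left out 1 liver.

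Male-biased liver genes were read beside Cyp7b1, and none passed the adjusted threshold. All 7 genes of that list (Cyp4a12a, Cyp4a12b, Cyp2d9, Elovl3, Hsd3b5, Mup20 and Serpina12) had lower fitted values in Rragc S74N/+ livers, with a median log2 fold change of -1.06. For Cyp4a12a (-0.21) the mean count was 4460.3 in Rragc+/+ and 4488 in Rragc S74N/+ livers, and Rragc S74N/+ replicate 2 was the highest of the 8 at 7684. Those with an unadjusted limma p under 0.05 were Elovl3, a fatty acid elongase (-1.96), Mup20, a urinary pheromone carrier (-1.26), and Serpina12, a serine protease inhibitor (-1.93), each with an adjusted p of 0.846. Elovl3 was the one of the 7 with separate genotypes. Mup20, Cyp4a12a and Cyp4a12b belong to families of related genes, and how reads were divided between family members was not examined. The summed level of the list was 64504 to 71271 normalized counts in Rragc+/+ livers and 16461 to 56061 in Rragc S74N/+ livers. As a mean log2 count, the list stood at 11.8, 11.6, 11.6 and 11.8 in Rragc+/+ livers and at 11.4, 11.0, 11.3 and 8.28 in Rragc S74N/+ livers, lowest in the 2-month-old mouse.

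Across the 8 livers the mean log2 of the male-biased list and the log2 count of Cyp7b1 gave a Pearson r of 0.93 (exact permutation p = 0.00327, adjusted 0.0131 over the 4 relations) and a Spearman rho of 0.74 (exact permutation p = 0.0458). Without the 2 livers farthest from the median of the list r was 0.44, so the relation rests on those livers. Without Rragc S74N/+ replicate 4 alone r was 0.79 (exact permutation p = 0.0359, adjusted 0.144). The genotypes were pooled, since 4 livers are too few for r within each. The list was chosen with earlier results of these data known, which the permutation p-values do not take into account. The 4 Y-linked genes examined after these values were seen (Ddx3y, Eif2s3y, Kdm5d and Uty) were counted in all 8 livers, and Ddx3y ranged from 315 to 533 with 420.1 in Rragc S74N/+ replicate 4. The part of age, hormonal state or genotype in the shared pattern was not tested.

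**Figure D3:**
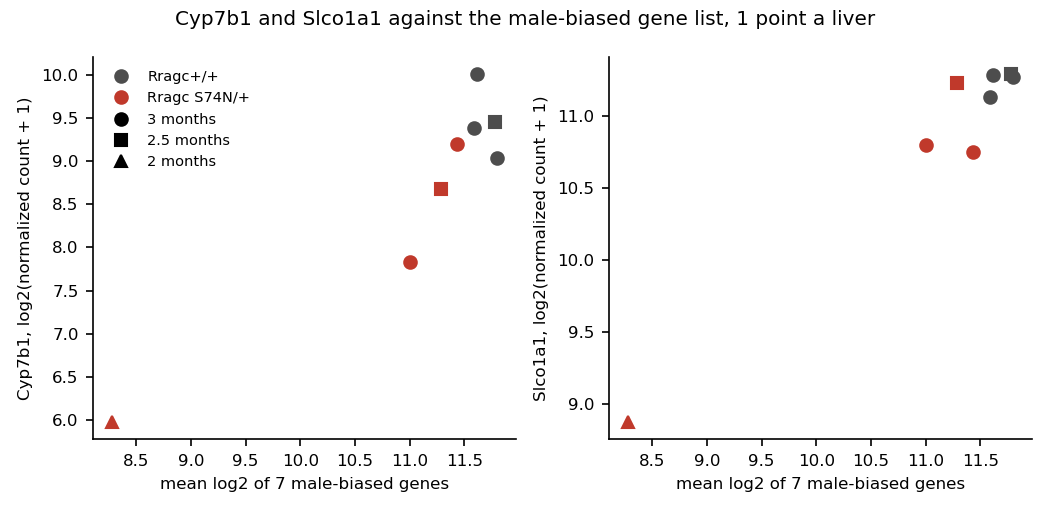
Log2(normalized count + 1) of Cyp7b1 (left) and of the uptake transporter Slco1a1 (right) against the mean log2 count of 7 male-biased liver genes, 1 point a liver, colour for genotype and shape for age. The 2-month-old Rragc S74N/+ mouse lies alone at 8.28 on the horizontal axis, and the other 7 livers lie between 11.0 and 11.8.

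The genes of bile acid conjugation varied little. Slc27a5, the bile acid coenzyme A ligase (chromosome 7, 12988346 to 12998192, reverse strand), was counted at 3704, 2675, 2872 and 3438 in Rragc+/+ and at 2569, 2707, 3955 and 2339 in Rragc S74N/+ livers. Both the highest and the lowest liver were Rragc S74N/+, and the log2 fold change was -0.15 (SE 0.21, 95% interval -0.61 to 0.31, adjusted p = 0.884 by limma). Baat, the amino acid N-acyltransferase (chromosome 4, 49489422 to 49506557, reverse strand), was counted at 693, 727, 639 and 927 in Rragc+/+ and at 653, 688, 737 and 517 in Rragc S74N/+ livers. The lowest liver was Rragc S74N/+ and the highest Rragc+/+, the ranges overlapped, and the log2 fold change was -0.20 (SE 0.20, 95% interval -0.63 to 0.23, adjusted p = 0.852 by limma). The SD of Baat within genotypes, 0.23 on the log2 scale, was larger than that of only 8.90% of tested genes.

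Of the receptor pair, Nr1h4 (FXR, chromosome 10, 89454234 to 89533585, reverse strand) was counted at 264, 214, 252 and 353 in Rragc+/+ and at 207, 234, 252 and 175 in Rragc S74N/+ livers. The single high value was that of the 2.5-month-old Rragc+/+ mouse. The log2 fold change was -0.31 (SE 0.22, 95% interval -0.79 to 0.17, adjusted p = 0.846 by limma). Nr0b2 (SHP, chromosome 4, 133553376 to 133556536, forward strand) was counted at 79.2, 158, 158 and 74.7 in Rragc+/+ and at 128, 151, 40.1 and 203 in Rragc S74N/+ livers, on 36 to 249 reads. Its values fell on both sides in each genotype, and the log2 fold change was 0.02 (SE 0.45, 95% interval -0.94 to 0.99, adjusted p = 0.993 by limma). That interval covers a change of nearly 1 log2 unit in either direction. Although SHP represses Cyp7a1, both were highest in the same liver, Rragc S74N/+ replicate 4. Across the 8 livers they gave a Pearson r of 0.14 (exact permutation p = 0.742, adjusted 0.809) and a Spearman rho of 0.14 (exact permutation p = 0.752), and r was 0.10 without the 2 livers farthest from the median of Nr0b2.

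Of the transporters, Slc10a1 (NTCP, the sodium-dependent uptake carrier, chromosome 12, 80953183 to 80968705, reverse strand) was counted at 637, 559, 764 and 781 in Rragc+/+ and at 842, 658, 674 and 663 in Rragc S74N/+ livers. It had the smallest spread of the 10 genes, an SD of 0.20 within genotypes on the log2 scale, larger than that of only 5.97% of tested genes. The log2 fold change was 0.06 (SE 0.19, 95% interval -0.36 to 0.47, adjusted p = 0.959 by limma). Abcb11 (BSEP, the canalicular export pump, chromosome 2, 69238282 to 69342616, reverse strand) was counted at 1081, 842, 1359 and 1165 in Rragc+/+ and at 1019, 958, 1354 and 1402 in Rragc S74N/+ livers. The ranges again overlapped, and the log2 fold change was 0.09 (SE 0.21, 95% interval -0.37 to 0.55, adjusted p = 0.934 by limma).

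Compared by transcript number, Slc27a5 (mean 3032 normalized counts over the 8 livers) and Cyp8b1 (2818) stood first, followed by Abcb11 (1148), Cyp27a1 (995), Baat (697) and Slc10a1 (697). Cyp7b1 (526), Nr1h4 (244), Cyp7a1 (178) and Nr0b2 (124) followed. The ranges of all 9 pairs of neighbours in this order overlapped. Cyp8b1 exceeded Abcb11, and Slc10a1 exceeded Cyp7b1, in 7 of 8 livers, while each other gene exceeded the next in 4 to 6 of 8. Together the 10 genes held 0.157% to 0.208% of the reads of a liver, least in Rragc S74N/+ replicate 4.

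That liver, of the 2-month-old mouse, was the highest or the lowest of all 8 for 8 of the 10 genes. It was highest for Cyp7a1, Nr0b2 and Abcb11 and lowest for Cyp8b1, Cyp7b1, Nr1h4, Baat and Slc27a5. Over all tested genes it stood at either end in 35.4%, the largest share of the 8 livers, and Rragc+/+ replicate 4 in 34.0%. Without it the log2 fold changes of the 10 genes ranged from -0.90 for Cyp7b1 to 0.25 for Cyp27a1, and those of Cyp7a1 and Nr0b2 turned to -0.20 and -0.26. For this liver, age, genotype and the single mouse cannot be told apart.

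**Figure D4:**
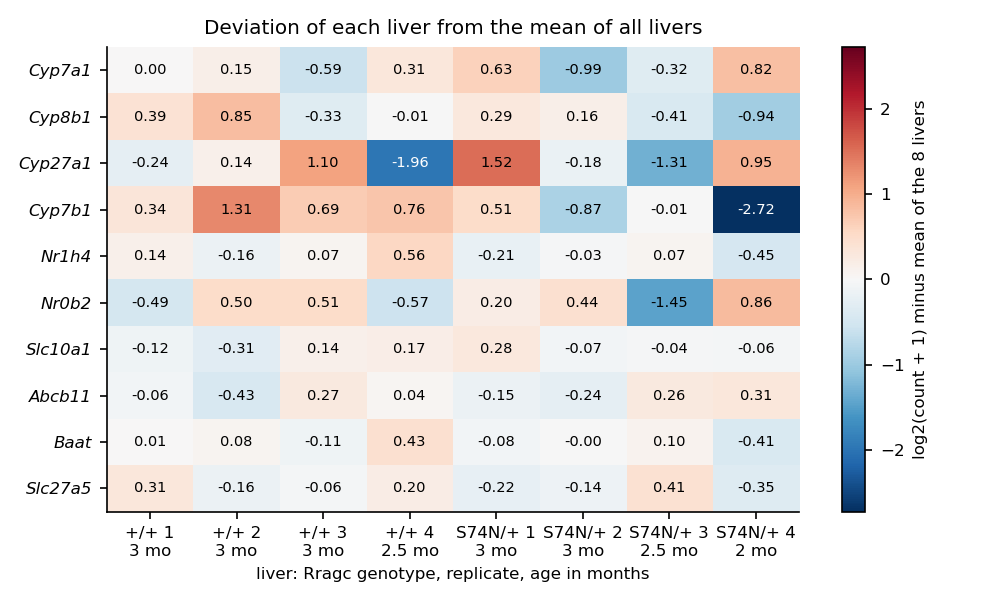
Log2(normalized count + 1) of each gene (rows) in each liver (columns, with genotype, replicate and age) minus the mean of the 8 livers, red for above and blue for below. The strongest departures are Cyp7b1 in the 2-month-old Rragc S74N/+ mouse (-2.72) and Cyp27a1 in the 2.5-month-old Rragc+/+ mouse (-1.96).

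The rest of the pathway was read from 3 further lists of 46 genes, of which 42 were in the table and 39 were tested. Ch25h, Slc51a, Fgf15 and Gpbar1 were not listed. By limma 22 had higher and 17 lower fitted values in Rragc S74N/+ livers, with a median log2 fold change of 0.05, and none passed the adjusted threshold with limma, edgeR or DESeq2. An unadjusted limma p under 0.05 was reached by 2 (Abcg5 and Klb, both higher), a share near the 5.17% of all tested genes and so no result about the lists, and by 2 with edgeR and with DESeq2.

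Among 13 tested enzymes of the sterol ring and side chain, 7 were higher and 6 lower, with log2 fold changes from -0.53 to 0.79 and a median of 0.07. The extremes were Amacr (0.79, SE 0.74, adjusted p = 0.852 by limma) and Acot8, a peroxisomal thioesterase (-0.53, SE 0.41, adjusted p = 0.846 by limma). With 1 liver left out, Amacr ranged from 0.11 without Rragc+/+ replicate 4 to 1.40 without Rragc+/+ replicate 3, and Acot8 from -0.78 without Rragc+/+ replicate 3 to -0.06 without Rragc S74N/+ replicate 4. Amacr was counted at 37.3, 65.5, 164 and 10.3 in Rragc+/+ and at 196, 56.0, 26.7 and 135 in Rragc S74N/+ livers. The 8 livers ranked in the same order by Amacr as by Cyp27a1, which was noted after the values were seen. Hsd17b4, the peroxisomal bifunctional enzyme of side chain shortening, was the only gene of the 39 with separate genotypes and was noted for that after its values were seen. Of all tested genes 2.94% had separate genotypes, so this is no result about the lists. Hsd17b4 was counted at 433, 446, 532 and 462 in Rragc+/+ and at 408, 277, 397 and 349 in Rragc S74N/+ livers (log2 fold change -0.40, SE 0.20, adjusted p = 0.846 by limma). Cyp46a1 was under a mean of 10.

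Among 12 tested transporters, 4 were higher and 8 lower, from -0.83 to 0.88 with a median of -0.15. Abcg5, which with Abcg8 secretes cholesterol into bile, was counted at 89.5, 96.3, 87.7 and 51.4 in Rragc+/+ and at 87.2, 97.8, 152 and 352 in Rragc S74N/+ livers. Only the 2 younger Rragc S74N/+ mice stood above the Rragc+/+ range by more than a few counts. Its log2 fold change of 0.88 (SE 0.40, adjusted p = 0.846 by limma) was 0.46 without Rragc S74N/+ replicate 4 and 0.02 in the 3-month-old mice alone. Its unadjusted p stayed under 0.05 in 3 of the 8 fits that left out 1 liver. Its partner Abcg8 was counted at 394, 425, 354 and 462 in Rragc+/+ and at 216, 377, 637 and 740 in Rragc S74N/+ livers. The log2 fold change of Abcg8 was 0.12 (SE 0.33, adjusted p = 0.942 by limma). Slco1a1, a male-biased uptake transporter named after its values were seen, was counted at 2470.4, 2488, 2238 and 2499 in Rragc+/+ and at 1717, 1780.2, 2399 and 470 in Rragc S74N/+ livers. Like Cyp7b1 it was lowest in the 2-month-old mouse, and its log2 fold change of -0.83 (SE 0.39, adjusted p = 0.846 by limma) was -0.32 without that liver. Slc51b and Abcb1a were under a mean of 10.

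Among 14 tested regulators, 11 were higher and 3 lower, from -0.48 to 0.62 with a median of 0.13. Klb, the β-Klotho coreceptor through which the gut hormone FGF15 represses Cyp7a1, was counted at 83.9, 77.6, 77.8 and 112 in Rragc+/+ and at 94.6, 112, 208 and 144 in Rragc S74N/+ livers. The log2 fold change was 0.62 (SE 0.28, adjusted p = 0.846 by limma). It was 0.40 without Rragc S74N/+ replicate 3, and the unadjusted p stayed under 0.05 in 3 of the 8 fits that left out 1 liver. The receptors and factors that act on the synthesis genes directly did not pass the threshold, among them Nr5a2 (LRH-1, 0.06 ± 0.20, log2 fold change ± SE) and Hnf4a (0.36 ± 0.29).

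**Figure D5:**
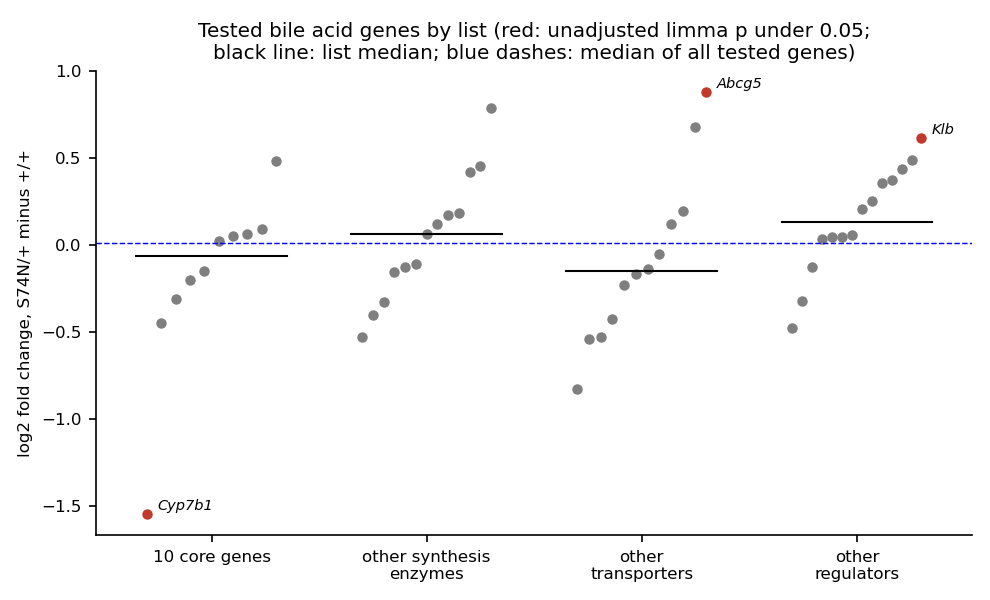
Log2 fold change, Rragc S74N/+ minus Rragc+/+, of each tested gene (points) in the 10 core genes and the 3 further lists, with the median of each list (black line) and of all tested genes (blue dashes, 0.01). Cyp7b1, Abcg5 and Klb, in red, had an unadjusted limma p under 0.05.

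Clock genes were read because bile acid synthesis follows the time of day. Of 11 tested, 4 were higher and 7 lower, none with an unadjusted limma p under 0.05, and Per1 and Npas2 were under a mean of 10. Dbp was counted at 11.2, 3.74, 11.3 and 57.9 in Rragc+/+ and at 6.43, 4.44, 126 and 4.89 in Rragc S74N/+ livers, high in 1 liver of each genotype. Nr1d1, Nr1d2 and Per3 were also highest in those 2 livers and Arntl was lowest in them, named after their values were seen. Tef, Hlf, Nfil3, Per2, Clock and Cry1 did not set both livers apart. The part of time of day in this was not tested. Across the 8 livers Dbp and Cyp7a1 gave a Pearson r of -0.10 (exact permutation p = 0.809, adjusted 0.809) and a Spearman rho of -0.12 (exact permutation p = 0.793). Without the 2 livers farthest from the median of Dbp, the 2.5-month-old mice, r was -0.17.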

How the data were processed

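QuantSeq 3′ libraries of 8 whole livers, 1 mouse each, were analysed (RNA integrity 6.7 to 7.9 per the labels). Alignment by the authors to GRCm38 used TopHat2 2.0.10, Bowtie 1.0.0 and SAMtools 0.1.19 (3 mismatches and 20 multiple hits allowed). They counted reads by strand with HTSeq 0.6.1 and scaled them with DESeq. The deposited signal is a normalized read count per gene. Every value (100%) was a whole multiple, within 0.01, of its liver's smallest value above 0, so whole reads were recovered (size factors 0.707 to 1.23). Reads carry no stated molecular identifiers. Coordinates are from GENCODE on GRCm38.

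Genes with a mean of at least 10 were tested with limma 3.58.1 in R 4.3.3 (mean-variance trend, genotype as the only term) on log2(normalized count + 1), which understates changes of low genes, with Benjamini-Hochberg adjustment over all tested genes at 0.05. Alternatives were DESeq2 1.42.0 and edgeR 4.0.16 (quasi-likelihood) on recovered reads, and other pseudocounts, filters, scalings, age terms and left-out livers. The genes and lists were chosen with earlier results of these data known. Named were the 10 genes, in each further pathway list those with an unadjusted p under 0.05 or else the 2 largest changes, and in marker lists those with an unadjusted p under 0.05 or a mean under 10. Replicate numbers come from sample order and only name a liver.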

Additional observations from a re-analysis of the deposited data

Results flagged for a closer look

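Slc10a1 in Rragc S74N/+ replicate 1 lay apart from the other Rragc S74N/+ livers, at 9.72 on the log2(normalized count + 1) scale against 9.36 to 9.40. The gap to the nearest liver was 0.900 of the range of the group, above Dixon's 95% critical value for 4 samples. Chance gives such a gap in about 1 in 20 groups, or 1.1 of the 22 groups examined, and the value lay 0.28 above the mean of all 8 livers.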

How the results depend on the processing

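None of the 10 genes and none of the 39 other pathway genes passed the adjusted threshold in the 8 fits that left out 1 liver or in the 12 other alternatives, with a smallest adjusted p of 0.253 and 0.647. Cyp7b1 stayed lower in Rragc S74N/+ livers in all of them, at -1.97 to -0.90 with 1 liver left out and -1.55 to -0.90 otherwise. With age in months as a covariate, age as a factor and 3-month-old mice alone, Cyp7a1 turned to -0.16, -0.21 and -0.033 and Abcb11 to -0.028, -0.021 and -0.12, and with age as a factor Nr0b2 turned to -0.16. With 1 liver left out, the log2 fold change ranged from -0.20 to 0.41 for Cyp7a1, -0.089 to 1.003 for Cyp27a1, -0.26 to 0.51 for Nr0b2, -0.038 to 0.12 for Slc10a1 and -0.036 to 0.19 for Abcb11, and stayed below 0 for Cyp8b1 (-0.63 to -0.21), Nr1h4 (-0.41 to -0.17), Baat (-0.27 to -0.091) and Slc27a5 (-0.31 to -0.059). The log2 ratio of Cyp8b1 to Cyp7a1 differed by -0.98 to -0.01. Correlations ranged from -0.24 to 0.41 for Cyp7a1 and Cyp8b1, -0.14 to 0.40 for Nr0b2 and Cyp7a1, -0.42 to 0.088 for Dbp and Cyp7a1, and 0.79 to 0.96 for the male-biased list and Cyp7b1. The last no longer passed the adjusted threshold without Rragc S74N/+ replicate 2, 3 or 4. The cause was not tested. No paired analysis was possible because replicate numbers were given in the order of the samples. Depth limits Nr0b2 most, at 36 reads in 1 liver.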
